A study of Saccharomyces cerevisiae BY4741 with 22 samples.

Results

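The precision of the mature 3' end was compared between 18S rRNA and 25S rRNA of the yeast Saccharomyces cerevisiae, in cells grown at 30 °C. The libraries were chosen by rRNA, temperature and linker, as every library from 30 °C made with the universal linker. They number 10 of the 22 libraries in the series, 6 of 18S rRNA and 4 of 25S rRNA. Of the ends counted near the mature end, nearly all lay at the annotated mature nucleotide in both rRNAs. The share of misplaced ends did not separate the rRNAs. What separated them was where the misplaced ends lay. Those of 18S rRNA lay mostly several nucleotides inside its mature sequence, and those of 25S rRNA mostly within 1 nucleotide of its mature end.

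The cells came from 2 strains of the BY4741 background, with 3 libraries of 18S rRNA and 2 libraries of 25S rRNA from each. In both strains the cell's own Pno1 and Dim1 genes stood behind galactose promoters (Gal::Pno1; Gal::Dim1), and the cells grew for 8 doublings in YPD, a glucose medium, which depletes both proteins. The first strain, called Pno1-KKKF below, carried plasmid copies of the mutant Pno1-KKKF behind the TEF promoter and of the mutant Dim1-E85A behind the Cyc1 promoter. The second strain, called Pno1 below, carried unmutated Pno1 behind the TEF promoter and the same Dim1-E85A plasmid. Dim1-E85A is thus shared by all 10 libraries, and none of them shows either rRNA in cells with unmutated Dim1. The series used the 25S libraries as controls, to ask whether the mutant Pno1 acts on 18S rRNA alone. The labels call the libraries biological replicates.

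18S rRNA is the RNA of the small ribosomal subunit, and its 3' end is made late, in the cytoplasm, by a single cut of the endonuclease Nob1 at a place called site D. Pno1 binds the pre-rRNA beside that site, Dim1 is the methyltransferase that modifies adenosines near the same end, and the kinase Rio1 releases Nob1 and Pno1 from the finished subunit. 25S rRNA is the large-subunit RNA and its 3' end is made in the nucleus by another route, in which the endonuclease Rnt1 cuts within the 3' external transcribed spacer and exonucleases trim the remainder.

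18S rRNA was taken from purified 40S subunits and 25S rRNA from purified 60S subunits. In 3'-RACE, the free 3' end of each RNA is joined to a linker oligonucleotide, and sequencing from a primer within the rRNA up to that linker shows where the molecule stopped. The deposited values are read depths at each of the 6858 nucleotides of the 35S precursor. An end was counted where the depth dropped and did not come back further downstream. Mature 18S rRNA covers positions 701 to 2500 of the precursor and mature 25S rRNA positions 3252 to 6647, per the RefSeq gene table of assembly R64. The last mature nucleotide is called position 0 in both. Ends at negative positions are truncated, since part of the mature sequence is missing, and ends at positive positions are extended into the spacer. Ends were counted from -17 to +50. Molecules that ended outside this window enter no share, so the shares do not give the fraction of all molecules that are mature. Libraries held 2615352 to 2847539 ends in the 6 18S libraries and 2562766 to 2845588 in the 4 25S libraries. No library's 95% Wilson interval of the misplaced, truncated or extended share was wider than 0.0224 percentage points to either side. Such intervals cover counting error only, since PCR can copy 1 molecule into many reads. The highest depth on the other rRNA was 62 reads in 18S libraries and 0 in 25S libraries, which checks the labels. The rRNA, the subunit and the gene-specific primer differ together between the 18S and 25S libraries and cannot be told apart.

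Position 0 held 97.2% ± 0.670 of the ends of 18S rRNA (SD, n = 6) and 96.6% ± 0.279 of the ends of 25S rRNA (SD, n = 4). Misplaced ends, all those not at position 0, made up 2.96, 3.40 and 2.86% in the Pno1-KKKF 18S libraries and 3.62, 2.26 and 1.85% in the Pno1 18S libraries. They made up 3.07 and 3.55% in the Pno1-KKKF 25S libraries and 3.25 and 3.68% in the Pno1 25S libraries. The rRNAs overlapped, and the 18S libraries of the Pno1 strain spanned a wider range than all 4 of the 25S libraries. The log2 odds of a misplaced end differed by -0.30 between 18S and 25S (SE 0.20). This difference did not pass a two-sided exact permutation test, in which the rRNA labels were exchanged within each strain (p = 0.18, adjusted p = 0.27 over 3 shares). The test has 100 arrangements, and the smallest p it can give is 0.01.

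Truncated ends made up 2.58% ± 0.601 of the ends of 18S (SD, n = 6) and 2.56% ± 0.260 of those of 25S (SD, n = 4). The log2 odds differed by -0.03 (SE 0.20), and the same exact permutation test gave an adjusted p of 0.9. Extended ends separated the rRNAs. They made up 0.280, 0.236 and 0.188% in the Pno1-KKKF 18S libraries and 0.422, 0.162 and 0.186% in the Pno1 18S libraries. In 25S rRNA they made up 0.827 and 0.813% in Pno1-KKKF libraries and 0.792 and 0.880% in Pno1 libraries. Every 25S library lay above every 18S library. Extended ends were lower in 18S by 3.58-fold in odds (log2 difference -1.84, SE 0.30), with an exact permutation p of 0.01 and an adjusted p of 0.03. The difference kept its size, at -2.06 to -1.71, when any 1 library was left out. Its adjusted p was then 0.05 without any 1 of the Pno1 18S libraries, 0.1 without any 1 of the Pno1-KKKF 18S libraries and 0.075 without any 1 of the 25S libraries, so the call was lost in 7 of 10 cases. Without a 25S library only 40 arrangements remain. The exact permutation p was then 0.025, the smallest possible there. With the other shares uncalled, the call could not be kept in those cases.

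**Figure D1:**
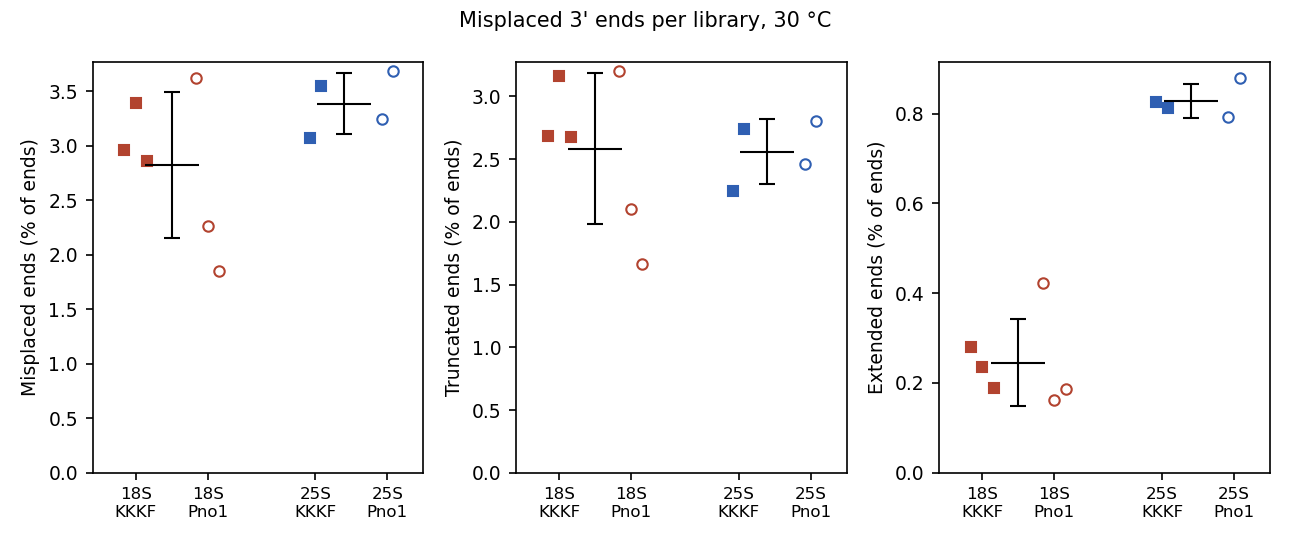
Share of ends (%, vertical axes from 0) that were misplaced, truncated or extended, for each library of 18S (red) and 25S (blue), with filled squares for Pno1-KKKF and open circles for Pno1; bars give the mean ± SD over the 6 18S or 4 25S libraries. The rRNAs overlap for misplaced and truncated ends, while extended ends reach at most 0.422% in 18S and lie at 0.792% or above in 25S.

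The balance between truncated and extended ends separated the rRNAs too. Truncated ends outnumbered extended ends by 11.1 ± 2.75 to 1 in 18S (SD, n = 6) and by 3.09 ± 0.277 to 1 in 25S (SD, n = 4). The ratio ranged from 7.59 to 14.2 over the 18S libraries and from 2.71 to 3.37 over the 25S libraries, with no overlap. It was higher in 18S by 3.51-fold (log2 difference 1.81, SE 0.20, exact permutation p = 0.01).

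The misplaced ends of 18S clustered at a few positions inside the mature sequence. The most frequent was -4, which came first in 6 of 6 libraries. It held 1.41, 1.74 and 1.31% of the ends in the Pno1-KKKF 18S libraries and 1.62, 0.944 and 0.807% in the Pno1 18S libraries. In the 25S libraries the same aligned position held 0.0220 and 0.0444% in Pno1-KKKF and 0.0338 and 0.0456% in Pno1. The lowest 18S library thus lay far above the highest 25S library. Position -4 was 35.4-fold higher in 18S (log2 difference 5.14, SE 0.31, adjusted p = 1.15e-08, edgeR quasi-likelihood test). It took 45.8% ± 3.34 of the misplaced ends of 18S (SD, n = 6) and 1.06% ± 0.248 of those of 25S (SD, n = 4).

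A further cluster in 18S lay from -10 to -7, with its peak at -9. Position -9 held 0.335, 0.407 and 0.325% of the ends in the Pno1-KKKF 18S libraries and 0.435, 0.256 and 0.183% in the Pno1 18S libraries. It held 0.00550 and 0.00894% in the Pno1-KKKF 25S libraries and 0.00862 and 0.00886% in the Pno1 25S libraries. Again no library of either rRNA reached the range of the other. Position -9 was 40.3-fold higher in 18S (log2 difference 5.33, SE 0.33, adjusted p = 1.15e-08, edgeR), and it was the third most frequent misplaced end of 18S after -4 and -1. Positions -8 and -7 were higher in 18S by 2.98 and 1.75 on the log2 scale. At -10, 18S had 0.0918% ± 0.0201 of its ends (SD, n = 6). Reads of 25S skip the nucleotide at -10, so that an end there would be counted further upstream, and no fold is given.

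The misplaced ends of 25S sat next to position 0. Position -1 came first in 4 of 4 libraries, with 2.02 and 2.44% of the ends in Pno1-KKKF 25S and 2.19 and 2.52% in Pno1 25S. In 18S the same position held 0.380, 0.409 and 0.427% in the Pno1-KKKF libraries and 0.435, 0.351 and 0.295% in the Pno1 libraries. Every 18S library was below every 25S library. Position -1 was lower in 18S, with 25S 5.99-fold higher (log2 difference -2.58, SE 0.12, adjusted p = 1.59e-09, edgeR). It took 13.9% ± 1.78 of the misplaced ends of 18S (SD, n = 6) and 67.5% ± 1.31 of those of 25S (SD, n = 4).

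The first spacer nucleotide showed the largest excess of 25S among positions with at least 10 ends in all 10 libraries. Position +1 held 0.0389, 0.0373 and 0.0355% of the ends in the Pno1-KKKF 18S libraries and 0.0609, 0.0300 and 0.0253% in the Pno1 18S libraries. It held 0.546 and 0.537% in the Pno1-KKKF 25S libraries and 0.567 and 0.560% in the Pno1 25S libraries. The 25S libraries lay within a narrow band far above those of 18S. The log2 difference was -3.86 (SE 0.24, 25S 14.5-fold higher, adjusted p = 1.15e-08, edgeR). Positions +2 and -2 were also lower in 18S, by log2 differences of -2.64 and -1.06.

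**Figure D2:**
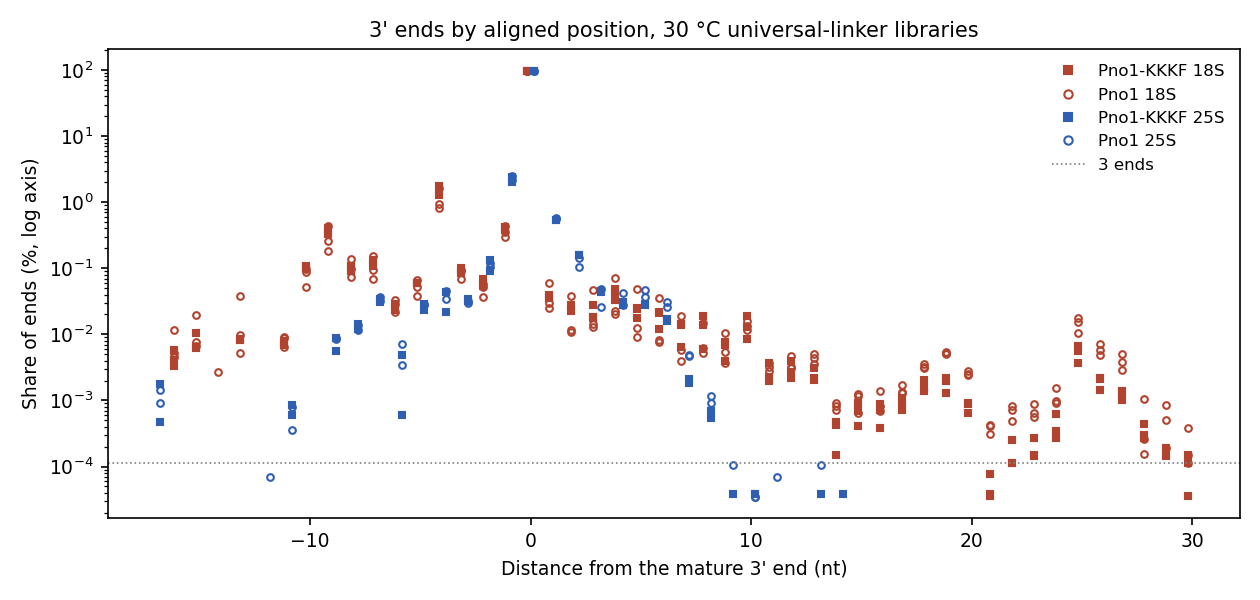
Share of ends (%, log axis) at each aligned position from -17 to +30 in every library, with 18S in red and 25S in blue, filled squares for Pno1-KKKF and open circles for Pno1; positions with no end in a library are not drawn, and the dotted line marks the share that 3 ends make. The 18S points peak at -4 and -9 and run on past +25, whereas the 25S points fall off on both sides of 0 and, beyond +8, lie at or below the line of 3 ends.

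Grouped into 6 regions, the difference changed sign with distance on the truncated side. From -10 to -3, 18S had 2.11% ± 0.536 of its ends (SD, n = 6) and 25S 0.154% ± 0.0151 (SD, n = 4), a 13.2-fold higher odds in 18S (log2 difference 3.72, SE 0.21). From -2 to -1, 18S had 0.438% ± 0.0611 (SD, n = 6) and 25S 2.40% ± 0.246 (SD, n = 4), with 25S 5.55-fold higher (log2 difference -2.47, SE 0.13). Both regions had an exact permutation p of 0.01 and an adjusted p of 0.012. The truncated ends of each rRNA thus lay mostly at different positions. From -17 to -11, 18S had 0.0365% ± 0.0224 (SD, n = 6) and 25S 0.00182% ± 0.000607 (SD, n = 4), with an exact permutation p of 0.01 and an adjusted p of 0.012. That log2 difference of 4.20 (SE 0.43) depends on how skipped nucleotides are handled, and became 0.80 when each drop of depth was counted as an end.

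The extended side changed sign as well. From +1 to +2, 18S had 0.0604% ± 0.0224 of its ends (SD, n = 6) and 25S 0.693% ± 0.0160 (SD, n = 4), with 25S 12.2-fold higher (log2 difference -3.60, SE 0.30), at an exact permutation p of 0.01 and an adjusted p of 0.012. From +3 to +10 the rRNAs overlapped, with 0.145% ± 0.0693 in 18S (SD, n = 6) and 0.135% ± 0.0269 in 25S (SD, n = 4). The log2 difference there was -0.02 with an SE of 0.41 (exact permutation p = 0.93, adjusted p = 0.93), so a difference of the size of that SE could not be detected. Within that region the order turned round. At +9 and +10 together the 6 18S libraries held 3231 ends, between 324 and 725 each, and the 4 25S libraries held 8, between 1 and 4 each. The share there was 272-fold higher in 18S, with an exact 95% interval of 138 to 631 for counting error only.

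Between +11 and +19 the 6 18S libraries held 3092 ends and the 4 25S libraries 7. Per library these were 499, 328 and 309 ends in Pno1-KKKF 18S and 778, 566 and 612 ends in Pno1 18S, against 0 and 2 ends in Pno1-KKKF 25S and 2 and 3 ends in Pno1 25S. The share was 298-fold higher in 18S, with an exact 95% interval of 144 to 741 that covers counting error only. Over the whole stretch from +11 to +50 the sums were 6553 ends of 18S and 7 of 25S, and the exact permutation p was 0.01 (adjusted p = 0.012). In 18S a separate peak stood at +25, with 156, 96 and 176 ends in the Pno1-KKKF libraries and 445, 278 and 469 ends in the Pno1 libraries. No 25S library had an end at +25, which makes 18S at least 90.4-fold higher when each 25S library is given a floor of 3 ends. The reads of 18S begin at -40 and those of 25S at -46. The longest stretch seen in 18S libraries, from the read start to the farthest position with at least 10 ends, was 67 to 72 nt, and the same stretch would reach only +21 to +26 in 25S. Ends of 25S at +25 may thus have been out of reach, while those from +11 to +19 lay within it.

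Position by position, 40 of the 68 positions from -17 to +50 had enough ends to test, at least 10 in at least 4 libraries. edgeR called 35 of them different between 18S and 25S, which is 87.5% of those tested. 18S was higher at 30 positions (75% of those tested) and 25S at 5 positions (12.5%). At 34 positions (85%) the shares of the 10 libraries did not overlap between the rRNAs. With library sizes scaled by TMM factors, 18S was higher at 28 positions and 25S at 10, and with the default size factors of DESeq2 at 27 and 10. These scalings moved position 0 by -0.94 and -0.99 on the log2 scale, although it held nearly the same share in both rRNAs. A part of the calls could hardly fall otherwise. The 14 tested positions beyond +10, and +9 and +10 themselves, had enough ends only in 18S, and 5 upstream positions lay on nucleotides that reads of one rRNA skip.

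At 18 misplaced positions there were at least 10 ends in all 10 libraries, and none of these was itself skipped in every library of an rRNA. Position -11 is among them, and in 25S it also takes any ends hidden by the skip at -10. Of the 18, 10 were higher in 18S, 4 were higher in 25S and 4 did not pass. The 4 higher in 25S were the nearest neighbours of the mature end, -2, -1, +1 and +2. Those higher in 18S included each measured position from -9 to -3, with the smallest log2 difference at -5 (1.03, SE 0.24). The 4 that did not pass were +3, +4, +5 and +6, with log2 differences of -0.84, 0.31, -0.60 and -0.29. Position +3 lay close to the threshold (SE 0.38, adjusted p = 0.052, edgeR), and 25S was called higher there in several other settings, DESeq2 on total ends among them (adjusted p = 0.0407). Position 0 itself differed by 0.01 on the log2 scale and was not called (adjusted p = 0.191, edgeR). Downstream, 18S was higher again at +7 (log2 difference 1.72, with overlapping libraries) and at +8 (3.68, with no overlap).

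**Figure D3:**
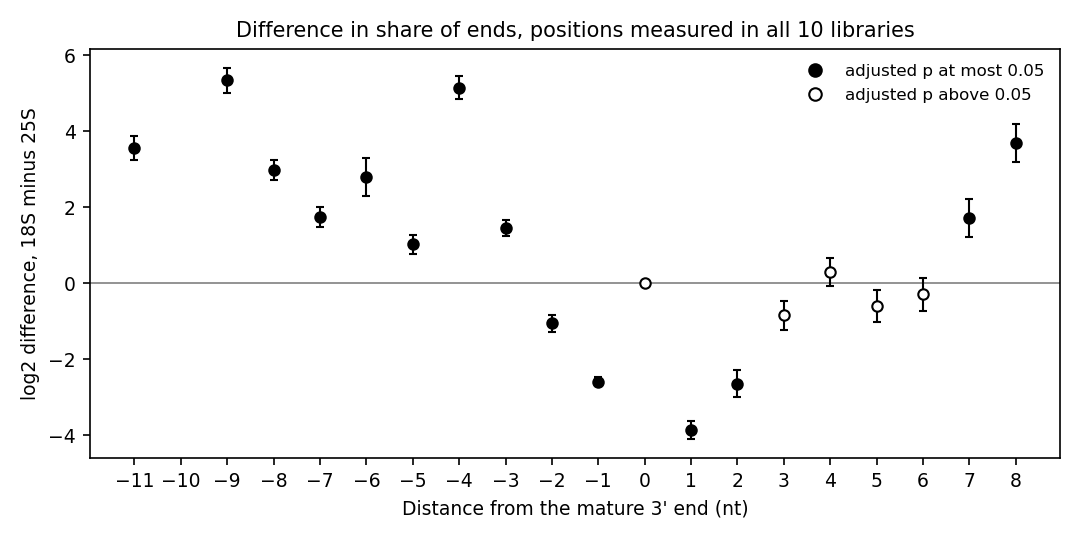
log2 difference in the share of ends, 18S minus 25S, with its standard error, at position 0 and the 18 misplaced positions with at least 10 ends in all 10 libraries (values above 0 are higher in 18S); the horizontal axis gives the distance from the mature 3' end in nt, filled points passed an adjusted p of 0.05 in edgeR and open points did not. The points lie above 0 from -11 to -3, below 0 at -2, -1, +1 and +2, and above 0 at +7 and +8, while those from +3 to +6 did not pass and run from -0.84 at +3 to 0.31 at +4.

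Spread was measured in 4 ways, and each separated the rRNAs without overlap. The SD of the end position within a library averaged 1.00 ± 0.107 nt in 18S (SD, n = 6) and 0.344 ± 0.0181 nt in 25S (SD, n = 4). The mean distance of misplaced ends from position 0 was 4.88, 4.84 and 4.78 nt in the Pno1-KKKF 18S libraries and 5.19, 5.06 and 5.12 nt in the Pno1 18S libraries. It was 1.40 and 1.40 nt in the Pno1-KKKF 25S libraries and 1.42 and 1.43 nt in the Pno1 25S libraries. A misplaced end of 18S thus lay 3.57 nt farther away on average (SE 0.0302, exact permutation p = 0.01, adjusted p = 0.01 over 4 measures of spread). Of the misplaced ends, 15.2% ± 1.76 were within 1 nt in 18S (SD, n = 6) and 83.9% ± 0.642 in 25S (SD, n = 4), a difference of -68.7 percentage points. The effective number of misplaced positions, which is the number of equally used positions that would give the same diversity, was 7.89 ± 0.867 in 18S (SD, n = 6) and 3.38 ± 0.0667 in 25S (SD, n = 4). For the SD, the share within 1 nt and the effective number the exact permutation p was also 0.01 and the adjusted p 0.01.

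**Figure D4:**
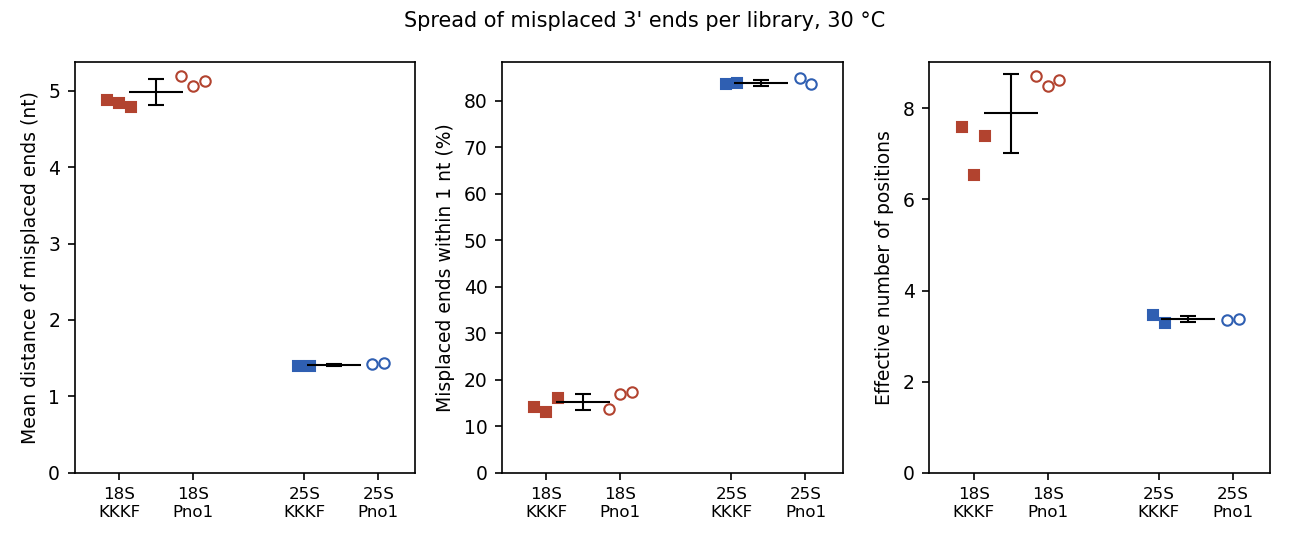
Mean distance of misplaced ends from the mature end (nt), share of misplaced ends within 1 nt (%), and effective number of misplaced positions in each library, with 18S in red, 25S in blue, filled squares for Pno1-KKKF and open circles for Pno1; bars give the mean ± SD over 6 18S or 4 25S libraries, and the axes start at 0. No 18S library enters the range of the 25S libraries in any of the 3 measures.

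Distance accumulated in steps in 18S and at once in 25S. Within 2 nt of position 0 lay 18% of the misplaced ends of 18S and 91.4% of those of 25S. The step at -4 raised the 18S share within 4 nt to 69.1%, where 25S had 95.6%. Within 8 nt the shares were 81.9% in 18S and 99.7% in 25S, and the step at -9 raised 18S to 93.4% within 9 nt, with 99.9% in 25S. Beyond 10 nt there remained 2.83% ± 1.26 of the misplaced ends of 18S (SD, n = 6) and 0.0557% ± 0.0182 of those of 25S (SD, n = 4). A part of these 18S ends lay beyond +21, where reads of 25S may not reach.

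**Figure D5:**
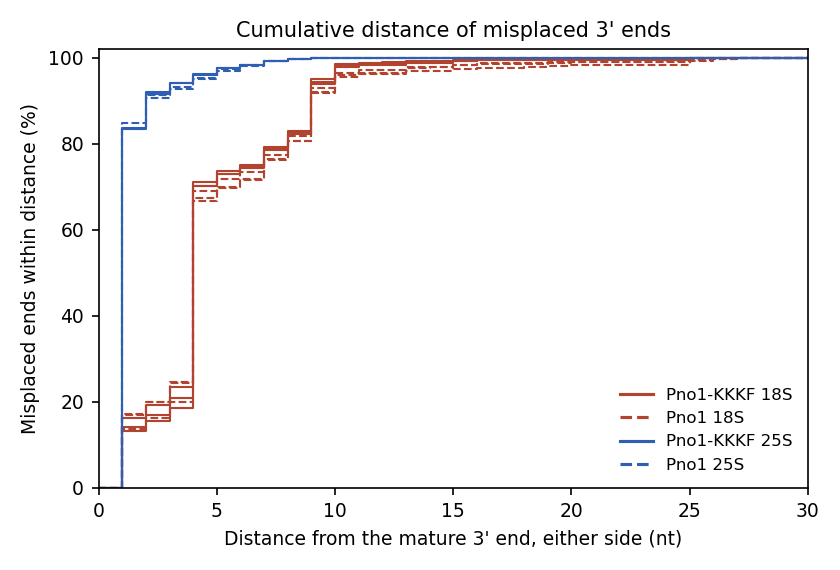
Cumulative share of misplaced ends (%) within a given distance of the mature 3' end on either side (nt), with a line for each library, 18S in red and 25S in blue, solid for Pno1-KKKF and dashed for Pno1. The 25S lines stand above 80% from 1 nt on, whereas the 18S lines stay under 25% until the step at 4 nt and take a further step at 9 nt.

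Misplaced ends of 18S lay farther from the mature end on both sides of it. The mean truncation was 4.77 ± 0.131 nt in 18S (SD, n = 6) and 1.31 ± 0.0156 nt in 25S (SD, n = 4). The mean extension was 7.17 ± 1.70 nt in 18S (SD, n = 6) and 1.72 ± 0.0882 nt in 25S (SD, n = 4). The 18S mean includes ends beyond +21, where reads of 25S may not reach. With the window cut at +19, misplaced ends of both sides together lay 3.40 nt farther away in 18S. Among truncated ends alone, -4 took 50.1% in 18S and 1.40% in 25S, while -1 took 15.2% in 18S and 89.5% in 25S. Among extended ends alone, +1 took 15.9% in 18S and 66.8% in 25S. The most frequent extended end was +4 in 3 of the 18S libraries and +1 in the other 3, and it was +1 in 4 of 4 25S libraries. At least 3 ends in every library were found at 42 of the 67 misplaced positions in 18S, from -16 to +29, and at 19 of the 67 in 25S, from -17 to +8. Skipped nucleotides hid ends at -16 to -13 and -10 in 25S and at -17 and -12 in 18S. Positions beyond +21 may be out of reach in 25S, so the counts are not fully alike.

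The same contrast between 18S and 25S was seen in each strain, with no overlap in distance or effective number. The mean distance was 4.83 ± 0.0492 nt in Pno1-KKKF 18S libraries and 5.13 ± 0.0642 nt in Pno1 18S libraries (SD, n = 3 each). In 25S it was 1.40 ± 0.00181 nt in Pno1-KKKF libraries and 1.43 ± 0.00714 nt in Pno1 libraries (SD, n = 2 each). The effective number was 7.17 ± 0.567 in Pno1-KKKF 18S and 8.61 ± 0.105 in Pno1 18S (SD, n = 3 each), with 3.38 ± 0.114 in Pno1-KKKF 25S and 3.37 ± 0.0172 in Pno1 25S (SD, n = 2 each). Whether the strain effect differed between 18S and 25S was tested by exact permutation of the strain labels within each rRNA (120 arrangements), over 7 measures. None passed after adjustment. With 120 arrangements and 7 measures, even the smallest possible p of a measure would not pass unless other measures were low too. The test could thus not detect a strain effect confined to a lone measure. The smallest exact permutation p was 0.05, for the effective number (difference of effects -1.44, adjusted p = 0.35), and that of the mean distance was 0.1 (difference of effects -0.263 nt, adjusted p = 0.35). For misplaced ends the difference of effects was 0.38 on the log2 scale (exact permutation p = 0.267, adjusted p = 0.467).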

How the data were processed

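3'-RACE sequencing measured the ends of 18S and 25S rRNA. The deposited values are per the file headers, whole-number counts of the reads that cover each nucleotide of the precursor. Read trimming (cutadapt 3.5 and Trim Galore 0.6.1), alignment (Bowtie2 2.2.9) and the tools UMI-tools 1.1.2, bedtools 2.17.0, SAMtools 1.1.0 and FastQC 0.11.4 are named in the submitters' processing notes, without a stated order. The sources used here do not give the settings or say whether duplicates were removed.

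Ends were computed as lasting drops of depth from -17 to +50, and ends further upstream were not counted. The highest depth lay at -18 or -20 in 18S libraries and at -20 or -25 in 25S libraries. An end hidden behind a skipped nucleotide is counted further upstream. Positions -17 and -12 in 18S, and -16 to -13 and -10 in 25S, were affected in every library of that rRNA. Each share entered as the log2 ratio of its ends to those at position 0 (0.5 added to each) and was tested by two-sided exact permutation of rRNA labels within strain, with Benjamini-Hochberg adjustment over 3 shares, 6 regions or 4 measures of spread. The threshold was an adjusted p of at most 0.05.

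Single positions were tested in R 4.3.3 with edgeR 4.0.16 (quasi-likelihood test), with strain and rRNA as terms, the ends in the window as library size, and at least 10 ends in at least 4 libraries. An alternative fit used DESeq2 1.42.0. Everything else ran in Python 3.11.15 (numpy 2.4.6, scipy 1.17.1). On simulated data for this comparison with 40 positions, edgeR recovered 100% of 4-fold changes and called 2.67% of unchanged positions. Smaller changes were not simulated.

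The libraries, regions and rules were chosen with earlier results of these data known. Positions were named by rule: 0, the nearest neighbours, the most frequent ends and those with the smallest p. Others named (-5, -6 and +5 to +8) were chosen after their values were seen. Other settings tried were the treatment of skips, the window, the pseudocount, each strain alone, a replicate block, library scaling, the filter, and leaving out each library.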

Additional observations from a re-analysis of the deposited data

Results flagged for a closer look

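Of 52 series of values tested for a library far from the others of its group, 3 were picked out, and chance does this to about 1 in 20. Pno1 18S replicate 1 had 0.0815% of its ends from -17 to -11, above the other 5 18S libraries. Pno1 25S replicate 2 had 0.175% of its ends from +3 to +10, above the other 3 25S libraries. Pno1-KKKF 25S replicate 1 had 0.00550% of its ends at -9, below the other 3 25S libraries.

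Reads on the other rRNA were seen in all 6 18S libraries, in 4 of them above a depth of 3. The highest depth on 25S rRNA was 8 in Pno1-KKKF 18S replicate 1, 8 in replicate 2 and 4 in replicate 3. It was 62 in Pno1 18S replicate 1, 2 in replicate 2 and 2 in replicate 3. The 25S libraries had none on 18S rRNA.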

How the results depend on the processing

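The differences in spread, balance and the regions from -17 to -11, -10 to -3, -2 to -1, +1 to +2 and +11 to +50 kept their direction in every setting run, and their call when any 1 library was left out. Within a single strain the smallest exact permutation p is 0.1, and with the replicate block 0.125, so no call could be made there. With Pno1-KKKF libraries alone, the log2 differences were -1.83 for extended ends, 3.94, 3.98, -2.33, -3.51 and 9.16 for those regions in turn and 2.02 for balance, and the spread differences were 0.658 nt (SD), 3.44 nt (distance), -69.2 points (within 1 nt) and 3.79 (effective number). With Pno1 libraries alone the same values were -1.85; 4.47, 3.46, -2.62, -3.70 and 9.04; 1.61; 0.654, 3.70, -68.3 and 5.23. With the replicate block they were -1.68; 4.43, 3.87, -2.42, -3.45 and 9.09; 1.78; 0.694, 3.58, -69.5 and 4.46. Whether the replicate numbers pair the samples was not settled. Deviations of same-numbered 18S and 25S libraries correlated at -0.0748 and 0.257 (Pno1-KKKF) and -0.565 and -0.518 (Pno1) over 18 positions. With only 2 25S libraries per strain, their deviations mirror each other, so these values cannot exclude a pairing. The block left 34 positions called.

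Some small values that were uncalled in the main setting changed sign in other settings. Truncated ends gave 0.19 with Pno1-KKKF alone and 0.10 with the block, and the region from +3 to +10 gave 0.24 and 0.20. Leaving out each library gave -0.16 to 0.0816 for truncated ends and -0.30 to 0.15 for +3 to +10. Extended ends, which were called, kept their sign at -2.06 to -1.71. The strain effect on extended ends ran from -0.24 to 0.46 with a library left out. That on the SD of position ran from -0.0543 to 0.0984 nt, and was -0.0066 with negative drops set to 0. Position 0 gave -0.94 (TMM) and -0.99 (DESeq2 default factors), and its reversed value passed the threshold under such scaling. Position +4 gave -0.74 and -0.83 with these scalings, and -0.0576 to 0.488 with a library left out (lowest without Pno1 18S replicate 1). The causes of these were not tested. Requiring 10 ends in all libraries left 19 positions, with 14 called. Leaving out positions with skips, a setting chosen after seeing the data like the window to +19, left 31 called; counts under the other settings were 34 to 44. Position +3 (-0.84, uncalled) was called at -1.89 (TMM), -1.98 (DESeq2 default factors) and -1.25 without Pno1 18S replicate 1, and in 7 of 12 settings and 2 of 10 leave-outs in all; -3 lost its call with DESeq2 default factors (0.45, adjusted p = 0.0591). Of the 21 named positions 17 kept direction and call in all settings. Ends rarer than 3 per library cannot be measured at this depth.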

Other observations

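The 12 other 18S libraries of the series, from cells grown at 25 °C and including a strain with unmutated Dim1, were made under other conditions and were set beside these values as a description only. Their misplaced share ran from 0.748 to 4.79% and their extended share from 0.0327 to 0.176%. The mean distance of their misplaced ends was 3.54 to 5.39 nt. Some were made with the universal linker and others with a linker labelled UMI. The share within 1 nt was 7.88 to 21.5% with the universal linker and 33.5 to 39.9% with the UMI linker. Position -4 took 32.5 to 49.5% of their misplaced ends and -1 took 7.24 to 37.5%. With the UMI linker, -1 exceeded -4 in some libraries (Pno1 replicate 6, 36.4 against 32.6%). In others it did not (Pno1 replicate 8, 32.3 against 36.9%). The effect of the linker was not tested. The differences from the 30 °C libraries were not tested, since 30 °C and 25 °C libraries differ in more than temperature.

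Reads skipped single nucleotides inside both rRNAs. Between -17 and +50, the largest skip was 0.0357% of a library's highest depth in 18S, at -12, and 0.0339% in 25S, at -13.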
